A study of Mus musculus with 6 samples.

Results

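Genes of the plasma lipases and their partners were read from liver arrays of mice with a conditional liver knockout of p14 and of control mice. The group was defined by name as 7 genes, Lpl, Lipc, Lipg, Gpihbp1, Angptl4, Pltp and Lcat, and a gene entered where the platform annotation pairs a probe set with that symbol alone. This gave 6 of the 7 genes with 11 of the 45101 probe sets, out of 18193 genes in all. No probe set was listed for Lipc, which encodes hepatic lipase, so it was not analysed here. Where a gene had several probe sets, the brightest on average across the 6 arrays was used, and the others are given beside it. The genes were grouped with the KO against WT differences of these data in view, above all those of Angptl4 and Pltp, so their differences and calls in that comparison are a description and support nothing further.

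The knockout group was 3 male C57BL/6 mice with a conditional liver deletion of p14 (KO 1 to KO 3), and the control group was 3 male C57BL/6 mice labelled p14 WT (WT 1 to WT 3). All 6 mice were 6 weeks old and each gave 1 liver RNA and 1 array. p14, the product of Lamtor2, is a scaffold protein of late endosomes that belongs to the Ragulator complex. The sources used here name neither the Cre driver nor the floxed allele, nor say whether the controls carried either. The values are log2 expression levels.

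Lipids leave the liver and the gut in triglyceride-rich lipoproteins, which lipoprotein lipase (Lpl) unloads on the walls of capillaries in muscle, heart and fat. GPIHBP1 holds the enzyme on the capillary endothelium, and the secreted ANGPTL proteins switch it off. Hepatic and endothelial lipase act on remnants and on HDL phospholipids, while PLTP moves phospholipid onto HDL and LCAT turns HDL cholesterol into its ester. In adult mouse liver, Lcat and Angptl4 are made by hepatocytes, Gpihbp1 by endothelium, and Lpl largely by cells other than hepatocytes.

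Lamtor2, the targeted gene, measured 10.08, 10.19 and 10.11 in KO 1, KO 2 and KO 3, against 11.32, 11.29 and 11.35 in WT 1, WT 2 and WT 3 (log2). That is 43.8% of the control signal (limma, adjusted p = 0.0104, and an exact two-sided permutation p of 0.1, the smallest that 3 against 3 arrays allow). The 15 hepatocyte markers averaged 15.29 on each KO array and between 15.28 and 15.31 on the WT arrays, near the top of the scale, with 8 differences above 0 and 7 below. One control stood apart, since 18 skeletal muscle markers averaged 10.47 on WT 2 and between 2.60 and 2.70 on the other arrays. KO 3 lay at -2.58 on the first principal component, between KO 1 and KO 2 at -30.39 and -22.27 and the WT arrays at 14.19 to 21.55.

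Promoter sequence was given for 3 of the 7 genes in the RefSeq table of build GRCm38.p6, and is shown for Pltp, the gene that passed the test below, and for Lcat, the one whose level hardly differed. Each line runs 5′ to 3′ on the minus strand, from 250 bases before the annotated start to 50 after it. Capitals mark matches on either strand to TATAAA (the TATA box), to CCAAT (the box bound by NF-Y) or to GGGCGG (the GC box). The windows lie at chr2:164857659-164857958 for Pltp and chr8:105943353-105943652 for Lcat.
Pltp: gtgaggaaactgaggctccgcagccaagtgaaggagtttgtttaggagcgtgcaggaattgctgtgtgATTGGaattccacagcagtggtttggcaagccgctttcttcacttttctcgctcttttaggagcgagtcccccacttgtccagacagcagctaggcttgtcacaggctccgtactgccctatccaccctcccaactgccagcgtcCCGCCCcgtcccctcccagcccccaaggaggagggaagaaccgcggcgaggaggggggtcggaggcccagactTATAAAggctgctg
Lcat: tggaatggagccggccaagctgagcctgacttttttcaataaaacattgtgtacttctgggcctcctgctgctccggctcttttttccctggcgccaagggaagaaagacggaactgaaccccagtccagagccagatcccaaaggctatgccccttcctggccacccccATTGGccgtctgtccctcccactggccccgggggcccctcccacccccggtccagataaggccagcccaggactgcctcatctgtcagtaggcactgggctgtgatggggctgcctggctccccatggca
The Pltp window held TATAAA with its first base at position 37, where 1 is the annotated start, CCAAT at position -182 and GGGCGG at position -37. The Lcat window held CCAAT at position -80, and these motifs do not overlap one another. Of 32851 promoters of the same length, 13.6% held TATAAA, 37.4% CCAAT and 35.7% GGGCGG. The nuclear receptor half-site AGGTCA, found in 16.3% of promoters, had 0 matches in either window. These counts describe the letters of these windows only.

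All 6 genes with a probe set were at a log2 level of at least 4 on every array, so none passed the filter on dim genes through 1 group alone. Of the 6, 1 was called, Pltp, which fell, and 0 rose (limma, Benjamini-Hochberg adjusted p under 0.05 over 10009 genes). Among all genes tested 0.17% were called in either direction and 0.15% as lower in KO. KO and WT arrays did not overlap for 3 of the 6, Angptl4 above WT and Gpihbp1 and Pltp below it. Among all genes 6.54% lay wholly above WT and 14% wholly below. Differences were above 0 for 2 genes and below 0 for 4, with a median of -0.58, against a median of -0.04 over all genes tested.

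**Figure D1:**
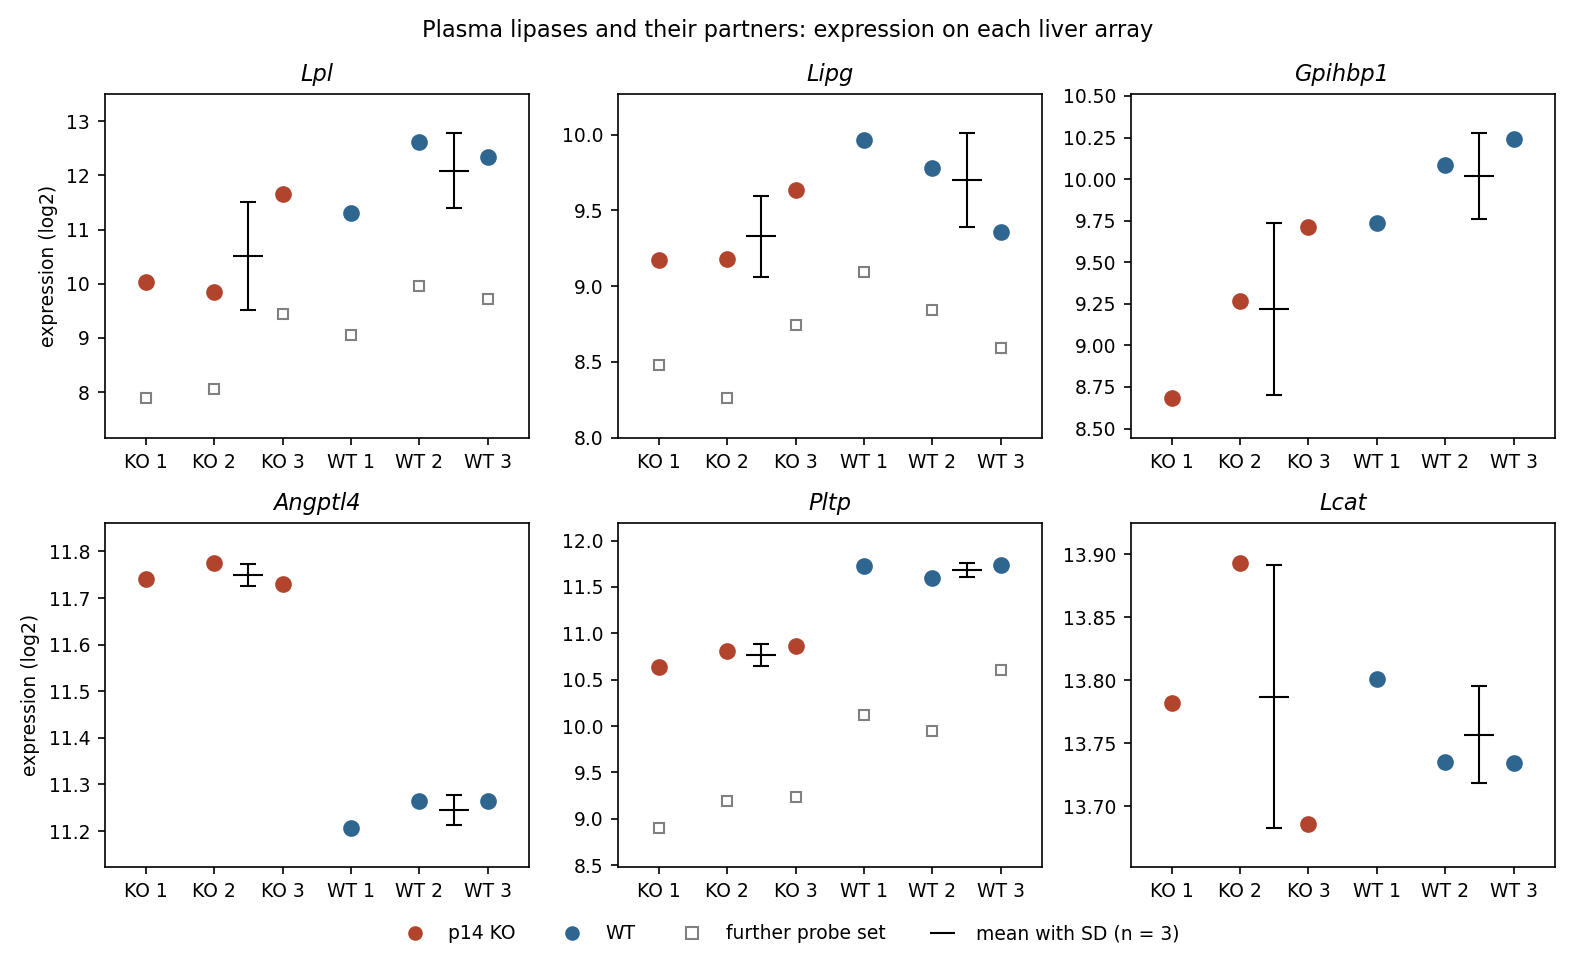
Expression (log2, vertical axes, which do not start at 0) of the 6 genes on each array, KO in red left of WT in blue, with the mean and SD of each group (n = 3) as black marks. Grey squares are further probe sets that reached 4. Angptl4 and Pltp fall into separate groups, while the KO 3 value of Lpl, 11.66, lies above WT 1 at 11.30.

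Among the lipases, Lpl had the widest difference and the widest spread. Lpl (Entrez gene 16956) measured 10.03, 9.85 and 11.66 in KO 1, KO 2 and KO 3, against 11.30, 12.61 and 12.34 in WT 1, WT 2 and WT 3. KO 1 and KO 2 were below every control, but KO 3 was above WT 1, so the groups overlapped. KO averaged 10.51 ± 1.00 and WT 12.08 ± 0.69 (SD, 3 arrays each), a difference of -1.57 ± 0.59 (SE), with KO at 33.7% of WT on the linear scale. This difference was not called (limma, adjusted p = 0.327). Only 0.809% of all genes differed by as much in either direction, and 98.9% had a smaller spread within groups. The second Lpl probe set showed the same order of arrays apart from the lowest pair, with 7.89, 8.06 and 9.44 in KO and 9.06, 9.96 and 9.72 in WT, and a difference of -1.12.

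The size of the Lpl difference depended on single arrays. Measured from the WT mean, Lpl was -2.05 in KO 1, -2.24 in KO 2 and -0.42 in KO 3. The difference was -2.14 without KO 3 and still not called (limma, adjusted p = 0.11). It was -1.33 without KO 1, -1.23 without KO 2, -1.96 without WT 1 and -1.44 without WT 3. It was -1.30 without WT 2, the liver with muscle transcripts and the highest Lpl value, and -1.88 without both. The part of muscle RNA in the Lpl level of WT 2 was not tested.

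Kupffer cell markers, whose cells can make Lpl, followed a similar order, except that KO 3 stayed below every control. Their mean over 20 genes was 8.17, 8.59 and 9.44 in KO 1, KO 2 and KO 3, against 9.76, 9.81 and 9.69 in WT 1, WT 2 and WT 3. All 20 had differences below 0, with a median of -0.89, and 0 were called by limma (14 lower at an unadjusted p under 0.05, against 10.1% of all genes tested, of which 5848 of 10009 were below 0). The 17 measured stellate cell markers averaged 8.93, 9.22 and 9.44 in KO 1, KO 2 and KO 3, against 9.36, 9.82 and 9.49 in WT 1, WT 2 and WT 3. As for Lpl, KO 3 was above WT 1, and the highest was WT 2, the liver with muscle transcripts. Differences were below 0 for 16 of the 17, with a median of -0.36, and 0 were called by limma (5 lower at an unadjusted p under 0.05). The median was -0.27 without WT 2. Of 9 fat cell markers with a probe set, 5 lay below 4 on every array, with Adipoq, Retn and Lep between 2.18 and 2.31. The other 4 had a median of 0.10, with Lipe at 0.21, Pnpla2 at 0.11 and Car3 at 0.08. Car3 lay between 15.3 and 15.5 on every array, at the level of the hepatocyte markers. The median of these 4 therefore does not measure fat cells alone. Only Fabp4, which macrophages and endothelium also express, was below 0. It measured 8.66, 8.99 and 9.09 in KO 1, KO 2 and KO 3, against 9.44, 10.25 and 9.36 in WT 1, WT 2 and WT 3, wholly below WT (limma, adjusted p = 0.305). The part of Kupffer cells, stellate cells or fat cells in the Lpl difference was not tested, and in whole liver RNA fewer cells of a type and less RNA per cell cannot be told apart.

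Gpihbp1 (Entrez gene 68453), the endothelial anchor of Lpl, had 1 probe set and measured 8.68, 9.27 and 9.71 in KO 1, KO 2 and KO 3, against 9.74, 10.08 and 10.24 in WT 1, WT 2 and WT 3. Every KO value was below every WT value, but KO 3 and WT 1 were only 0.023 apart. KO averaged 9.22 ± 0.52 and WT 10.02 ± 0.26 (SD, 3 arrays each), a difference of -0.80 ± 0.28 (SE) that was not called (limma, adjusted p = 0.317). It was -0.53 without KO 1, the lowest array, and -1.04 without KO 3.

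Endothelial markers averaged 7.90, 8.15 and 8.23 in KO 1, KO 2 and KO 3 over 21 genes, against 8.47, 8.45 and 8.57 in WT 1, WT 2 and WT 3. Of these, 19 were lower in KO and 1, Lyve1, was called, with a median of -0.33. At an unadjusted p under 0.05 in limma, 11 of the 21 were lower, and 14 lay wholly below WT. Among all genes tested 0.15% were called as lower, 10.1% were lower at that unadjusted p and 14% lay wholly below WT. Of markers typical of sinusoidal endothelium, chosen after their values were seen, Lyve1 was at -1.32, Stab1 at -0.38, Stab2 at -0.33, Fcgr2b at 0.06 and Clec4g at 0.07. The part of endothelial cells in the Gpihbp1 difference was not tested.

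**Figure D2:**
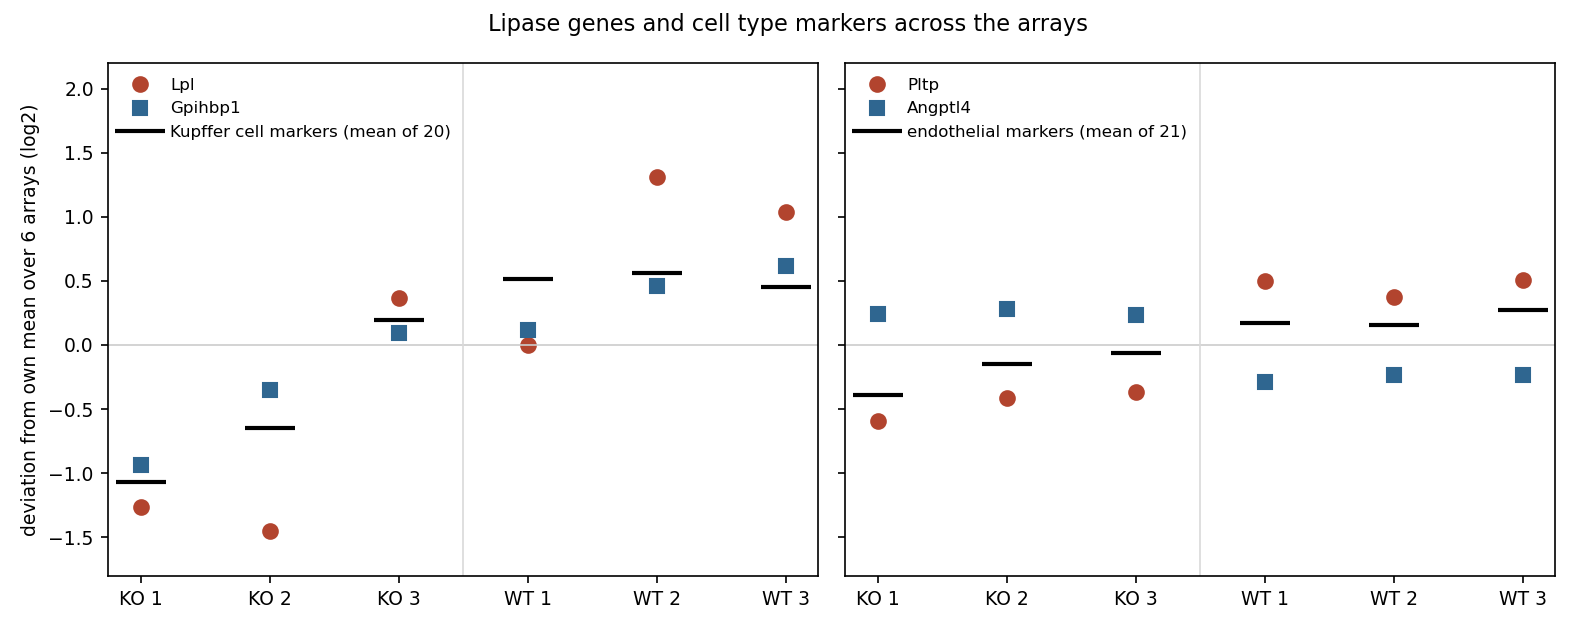
Deviation of each gene (dots and squares) and of marker means (black bars) from its own mean over the 6 arrays, on the log2 scale, KO left of WT. On the left Lpl, Gpihbp1 and the Kupffer cell markers are lowest on KO 1 and KO 2, with KO 3 near the controls. On the right Pltp lies below its mean on all 3 KO arrays and Angptl4 above it.

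Lipg (Entrez gene 16891), the endothelial lipase that cleaves HDL phospholipids, differed less. It measured 9.17, 9.18 and 9.64 in KO 1, KO 2 and KO 3, against 9.96, 9.78 and 9.36 in WT 1, WT 2 and WT 3. KO 3 was above WT 3, so the groups overlapped. The difference was -0.37, with a 95% interval of -0.87 to 0.14 (limma, adjusted p = 0.436). A second probe set gave -0.35 with the same overlap, and the third stayed between 2.77 and 2.94 on all arrays, near background.

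Angptl4 (Entrez gene 57875), the fasting-induced inhibitor that inactivates lipoprotein lipase, had the tightest values. It measured 11.74, 11.78 and 11.73 in KO 1, KO 2 and KO 3, against 11.21, 11.26 and 11.26 in WT 1, WT 2 and WT 3. The groups were 0.47 apart at their nearest values, far beyond the range of 0.046 within KO and 0.057 within WT. The difference was 0.50 ± 0.056 (SE), or 1.42-fold higher in KO, and it was not called (limma, adjusted p = 0.0655), with rank 21 of 10009 by p. The spread within groups was smaller for only 2.1% of genes, while 9.03% of genes differed by as much in either direction. KO 3, close to the controls for Lpl, was 0.48 above the WT mean for Angptl4, beside 0.49 for KO 1 and 0.53 for KO 2. Without KO 3 the gene was called (limma, adjusted p = 0.0485), in a fit that called 140 of all 10009 genes. With any other single array left out it was not called (limma, adjusted p from 0.197 to 0.255). Its other probe set lay between 2.18 and 2.29 on all arrays and carries no information.

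Pltp (Entrez gene 18830), the phospholipid transfer protein of plasma, was the 1 gene of the group that fell. It measured 10.63, 10.81 and 10.86 in KO 1, KO 2 and KO 3, against 11.73, 11.60 and 11.74 in WT 1, WT 2 and WT 3. All KO values lay at least 0.74 below all WT values, and KO 3 stood with the other KO livers. KO averaged 10.77 ± 0.12 and WT 11.69 ± 0.08 (SD, 3 arrays each), which puts KO at 52.9% of WT on the linear scale. On the log2 scale this was -0.92 ± 0.086 (SE), and it stood at rank 11 of 10009 by p (limma, adjusted p = 0.0411). The marker means of endothelial cells (7.90 to 8.23 in KO, 8.45 to 8.57 in WT) and of Kupffer cells also lay wholly below WT. Those of stellate cells and hepatocytes overlapped. The part of these cells in the Pltp difference was not tested, and in whole liver RNA fewer cells and less RNA per cell cannot be told apart.

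The second Pltp probe set measured 8.91, 9.20 and 9.24 in KO 1, KO 2 and KO 3, against 10.12, 9.94 and 10.60 in WT 1, WT 2 and WT 3. Its groups did not overlap either, and its difference was -1.11. With every probe set tested on its own it was not called (limma, adjusted p = 0.18). In that fit the first Pltp probe set was not called either (limma, adjusted p = 0.0527). The call of Pltp was lost on leaving out any array but KO 3. With KO 1 left out the limma adjusted p was 0.124, with KO 2 left out 0.171, and with KO 3 left out 0.0354. With WT 1 left out it was 0.215, with WT 2 0.139 and with WT 3 0.179. The difference itself stayed between -0.97 and -0.85 over these 6 fits.

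Lcat (Entrez gene 16816), the cholesterol-esterifying enzyme of HDL, measured 13.78, 13.89 and 13.69 in KO 1, KO 2 and KO 3, against 13.80, 13.74 and 13.73 in WT 1, WT 2 and WT 3. The WT values lay inside the KO range. The difference was 0.03 with a 95% interval of -0.16 to 0.22 (limma, adjusted p = 0.859). It was -0.02 without KO 2.

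Nearest profiles were taken by the root mean square distance between profiles centred on their own mean over the 6 arrays, skipping predicted genes and clone names. By this measure the genes nearest to Pltp were Thbd at 0.056, Ctla2a at 0.068 and Camsap3 at 0.12. Their differences were -0.95, -0.86 and -1.06, and such likeness follows from choosing them by profile. Thbd, the endothelial anticoagulant thrombomodulin, measured 4.97, 5.01 and 5.11 in KO and 6.09, 5.87 and 5.97 in WT. Nearest to Angptl4 were Zfyve1 at 0.067, Il1rap at 0.085 and Thrsp at 0.088, with differences of 0.45, 0.39 and 0.44. Further probe sets gave 0.48 for Zfyve1, but -0.15 and 0.19 for Il1rap and 0.68 and -0.99 for Thrsp. The likeness to Angptl4 thus depended on the probe set for Il1rap and for Thrsp, of which 1 further probe set had the same sign and 1 the opposite.

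The lipases act within a wider set of genes, taken here from 6 lists by function. Of their 104 genes, 84 were measured, and 0 were called (limma, adjusted p under 0.05), against 0.17% of all genes. At an unadjusted p under 0.05 in limma there were 2 higher and 6 lower, against 4.32% higher and 10.1% lower among all genes tested. Groups did not overlap for 4 above WT and 11 below, or 15 of 84 together, beside the 6.54% above and 14% below among all genes. The median difference was -0.06, close to the -0.04 of all genes tested.

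**Figure D3:**
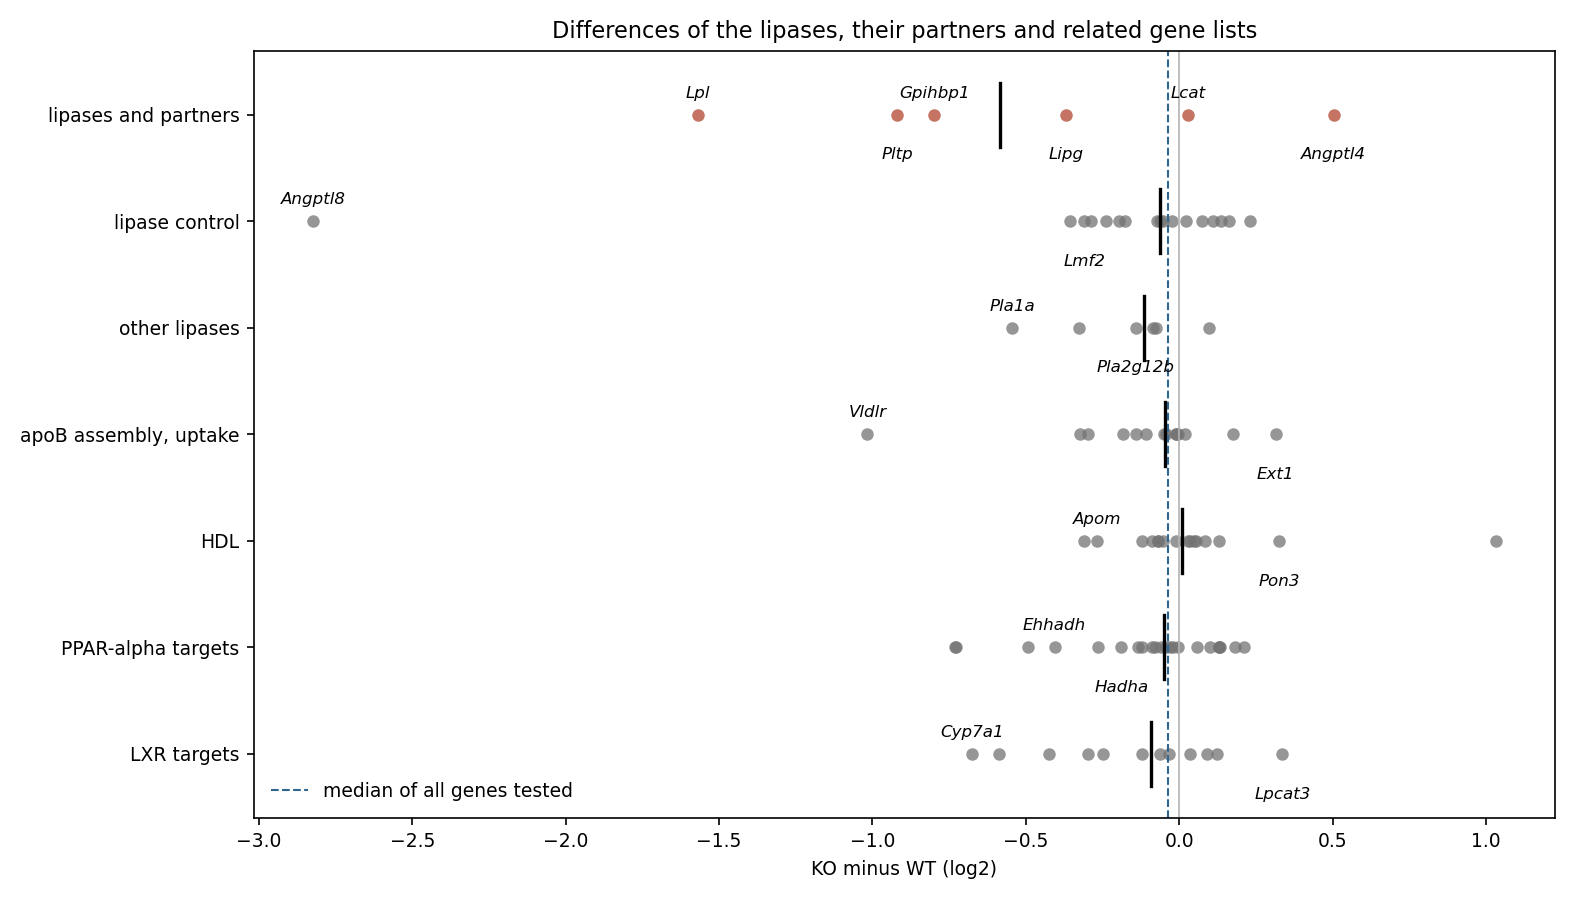
KO minus WT difference (log2, horizontal axis) of the 6 genes of the group (red, top row) and of the measured genes of 6 related lists (grey), each dot 1 gene. Black bars are list medians and the dashed line is the median of all genes tested, -0.04. Angptl8 at -2.82 lies furthest from 0, and the list medians lie between -0.11 and 0.01.

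Among genes that control plasma lipases, 17 of 18 were measured, with 6 differences above 0 and 11 below, a median of -0.06 and 0 called. Angptl8, a feeding-induced protein that takes part in inhibiting lipoprotein lipase, measured 9.73, 8.41 and 8.84 in KO 1, KO 2 and KO 3, against 10.87, 11.87 and 12.71 in WT 1, WT 2 and WT 3. All KO values were below all WT values, with KO at 14.1% of WT. The difference of -2.82 ± 0.55 (SE) did not pass (limma, adjusted p = 0.19), with controls that ran from 10.87 to 12.71. Lmf2, a relative of the lipase chaperone Lmf1, averaged 8.44 ± 0.06 in KO and 8.75 ± 0.09 in WT over 3 arrays each (SD; limma, adjusted p = 0.224). The differences of Angptl4 and Angptl8 had opposite signs, and neither passed. Named after their values were seen, the lipase activator Apoc2 was at -0.20, the inhibitor Apoc3 at -0.05 and Apoa5, which favours lipolysis, at 0.16, and none was called.

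**Figure D4:**
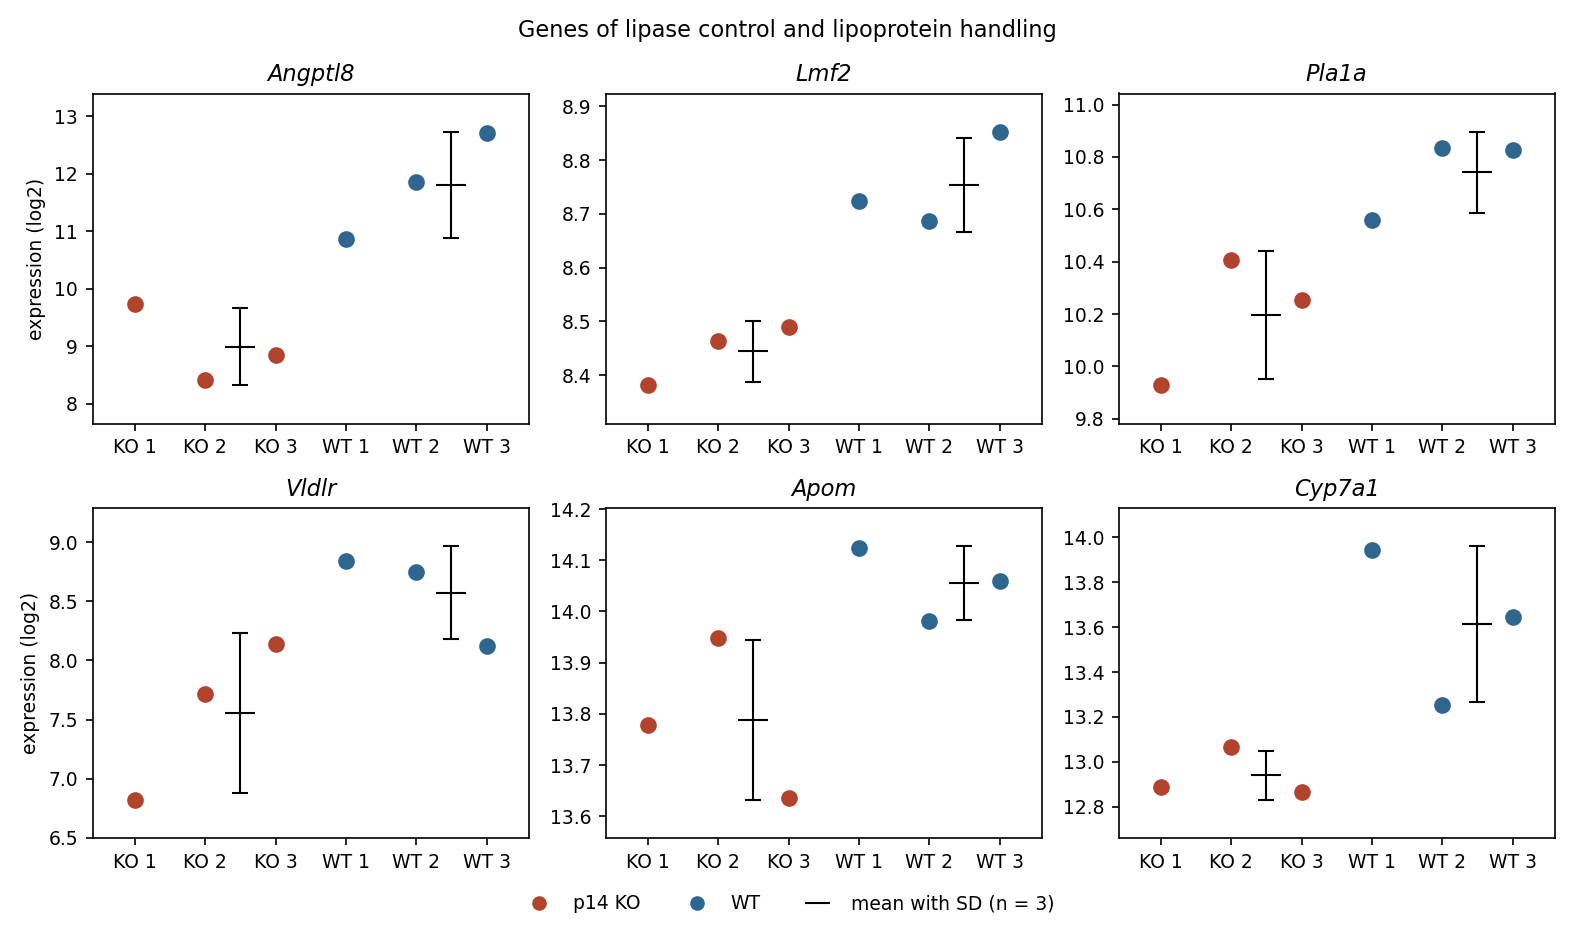
Expression (log2, vertical axes, which do not start at 0) of 6 genes of lipase control and lipoprotein handling on each array, KO in red left of WT in blue, with group mean and SD (n = 3). Angptl8 runs from 8.41 to 9.73 in KO and from 10.87 to 12.71 in WT, and the Vldlr value of KO 3 reaches the lowest control.

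Other members of the lipase families, 6 measured of 13, had a median of -0.11 and 0 calls. Pla1a, a secreted phospholipase that cleaves phosphatidylserine, measured 9.93, 10.41 and 10.25 in KO, against 10.56, 10.83 and 10.83 in WT, without overlap (limma, adjusted p = 0.251). Pla2g12b, which mouse liver needs to secrete VLDL, was at -0.14. Cel, Pnliprp1, Liph, Lipi and Lipn lay at the lowest value of the table on every array, and Pnliprp2 was at 2.19 to 2.21.

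For assembly and uptake of apoB lipoproteins, 14 of 18 genes were measured, with a median of -0.05 and 0 calls. Vldlr, a receptor for lipoproteins rich in apoE, measured 6.82, 7.71 and 8.14 in KO 1, KO 2 and KO 3, against 8.84, 8.75 and 8.12 in WT 1, WT 2 and WT 3. KO 3 reached the level of WT 3, and the difference was -1.02 (limma, adjusted p = 0.327). Its 4 further probe sets that reached 4 differed by -1.32 to -0.54. Ext1, which builds heparan sulfate, was at 0.31. HDL genes, 16 measured of 16, had a median of 0.01 and 0 calls. Apom, the sphingosine-1-phosphate carrier of HDL, was at -0.27 without overlap (-0.18 by its second probe set), and Pon3, an HDL lactonase, at 0.33 without overlap. Apoa4, chosen after its values were seen, measured 14.29, 13.79 and 12.34 in KO 1, KO 2 and KO 3, against 12.13 to 12.63 in WT, so that KO 3 again lay among the controls.

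Angptl4 is a target of PPAR-alpha, and Pltp and Lpl are targets of the liver X receptors. PPAR-alpha and its other targets, 22 measured of 28, had a median of -0.05, with 7 differences above 0, 15 below and 0 calls. The median was 0.04 without KO 3 and -0.05 without WT 2. Pdk4, the lowest at -0.73, measured 10.19 in WT 2 but 5.08 and 4.74 in WT 1 and WT 3. Its KO values were 5.69, 5.70 and 6.42, above WT 1 and WT 3. Hadha, of mitochondrial fatty acid oxidation, was at -0.19 without overlap, and the peroxisomal enzyme Ehhadh at -0.41 with overlapping groups. Liver X receptor genes, 12 measured of 14, had a median of -0.09, with 4 above 0, 8 below and 0 calls, and the median was -0.21 without KO 3 and -0.16 without WT 2. Cyp7a1, the first enzyme of bile acid synthesis, averaged 12.94 ± 0.11 in KO and 13.61 ± 0.35 in WT over 3 arrays each (SD; limma, adjusted p = 0.25), and its second probe set differed by -0.24 with overlapping groups. Lpcat3, which loads polyunsaturated chains into phospholipids, was 11.95 ± 0.11 in KO and 11.62 ± 0.14 in WT over 3 arrays each (SD; limma, adjusted p = 0.273). The part of PPAR-alpha or of the liver X receptors in the differences of Angptl4, Pltp and Lpl was not tested. Without KO 3, 2 genes of these lists, Mylip and Scd1, were called as lower. That fit called 140 of all 10009 genes, 114 of them as lower, against 17 with all arrays.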

How the data were processed

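Liver RNA of 3 p14 KO and 3 WT mice was profiled on Affymetrix mouse arrays, 1 array a mouse. Each probe set has a deposited log2 level. Per the submitters' processing notes, the authors used GCRMA 2.16.0 under R 2.9.1. GCRMA corrects background from probe sequence and normalises across arrays, so dim probe sets pile up at a shared low value, here 28.9% of all values at 2.18. The sources used here give no other settings, and the log2 scale was read from the values, which ran to 16.33. The number of arrays limits the precision.

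Symbols came from the platform annotation (34945 probe sets with 1 gene symbol, 932 with several, 9160 with none, 64 controls). The brightest probe set stood for each of 18193 genes. The 10009 genes that reached 4 (log2) on 3 or more arrays were tested with limma 3.58.1 in R 4.3.3 (lmFit, eBayes, two-sided, no covariates, Benjamini-Hochberg over all genes, called under 0.05). All differences are log2 values, WT subtracted from KO. The fit was tested on simulated data. The members and the lists were chosen with earlier results of these data known. Named were the members, in each list the called genes and the 2 others with the smallest p, and the 3 nearest profiles of Pltp and Angptl4. Predicted genes and clone names were skipped among the profiles. Other genes, among them single marker genes, Mylip, Scd1, Pdk4 and the lipases at the lowest value, were named after their values were seen. Alternatives covered the filter, normalisation, floor, probe sets, variance model, array weights, a replicate block and arrays left out. Marker lists for lymphocytes, neutrophils, bile duct and stellate cells were read too: their medians were 0.03 over 4 genes, 0.39 over 2 (-0.02 to 0.76 over the alternatives), 0.08 over 1 and -0.36 over 17. Hepatocyte markers had a median of 0.01, fat cell markers 0.10 over 4 genes, and muscle markers -2.17 over 2, which was -0.05 without WT 2. Figures were drawn with matplotlib 3.10.9.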

Additional observations from a re-analysis of the deposited data

How the results depend on the processing

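The number of members called was 1 (Pltp). It was 0 with no filter, when the probe sets of a gene were averaged, with every probe set tested on its own, with an ordinary fit, with the replicate block and without KO 3 and WT 2 together, and 2 (Pltp and Angptl4) with a trended, robust variance. With 1 array left out it ran from 0 to 2. The number of genes called among all tested, 17, was 3 with no filter, 3 with an ordinary fit, 0 with the replicate block in limma (1235 at an unadjusted p under 0.05) and 3 without KO 3 and WT 2 together. It ran from 1 to 140 with 1 array left out: 6 lacking KO 1, 1 lacking KO 2, 140 lacking KO 3, 1 lacking WT 1, 1 lacking WT 2 and 5 lacking WT 3. Genes of the related lists called, 0 of 84, ran from 0 to 2 with 1 array left out. The replicate numbers are not stated to pair mice, and same-numbered arrays did not deviate together (correlations of -0.09, -0.08 and -0.14 over genes). With the replicate block the adjusted p of Pltp was 0.216. With 1 array left out the Lcat difference, 0.03, ran from -0.023 (lacking KO 2) to 0.081 (lacking KO 3), and it was 0.097 with median centring. Over 18 alternatives the differences ran from -1.01 to -0.85 for Pltp, 0.27 to 0.57 for Angptl4, -2.14 to -1.23 for Lpl, -1.04 to -0.53 for Gpihbp1, -0.54 to -0.24 for Lipg and -3.30 to -2.38 for Angptl8, and limma's adjusted p from 0.0245 to 0.216 for Pltp and from 0.047 to 0.288 for Angptl4. The cause of these changes was not tested. Probe sets near the lowest value, among them the other Angptl4 probe set, could not show a difference.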
